A study of Mus musculus with 9 samples.

Results

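Myosin heavy chains of the conventional class are the motor subunits of the muscle thick filament and of the contractile bundles of other cells, and 10 of their genes were followed here in C2C12 myoblasts, a mouse muscle precursor line. They are the developmental genes Myh3 and Myh8, the adult fast genes Myh1, Myh2 and Myh4, the slow and cardiac genes Myh6 and Myh7, the smooth muscle gene Myh11, and the non-muscle genes Myh9 and Myh10. The genes were chosen by name, with earlier results of these data known, and the rule itself used no measured value. All 10 were found by symbol among the 53700 gene IDs of the count table. Only 3 of the 10 (Myh3, Myh9 and Myh10) had enough counts to enter the test across genes.

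Each heavy chain joins its head, which splits ATP and pulls on actin, to a long coiled tail that assembles into filaments, and it carries a pair of essential and regulatory light chains on its neck. Skeletal muscle passes from the embryonic Myh3 and the perinatal Myh8 to the adult fast and slow genes as fibres form and mature. Non-muscle heavy chains are present in nearly every cell, where they act in adhesion, shape and division, and they precede the striated forms in myoblasts.

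The 3 groups of 3 libraries were made from total RNA of wells in 3 plates with 6 wells each. Control cells were starved for 12 h in the reduced-serum medium OPTI-MEM and then taken. Valine cells went on from that starvation for 36 h with 0.45 mM valine, a branched-chain amino acid. Val+PA cells had the same valine concentration for 24 h, and palmitic acid (75 µM), which is a saturated fatty acid, for 12 h. Every group came from the same line and from 1 plate, so p-values measure only the spread among wells of a plate. Valine, the later collection and the plate cannot be told apart in the comparisons with Control, nor can palmitic acid, the shorter time in valine (24 against 36 h) and the plate between Val+PA and Valine. In bulk RNA, fewer cells that express a gene and less RNA per cell cannot be told apart.

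Library totals were 26750226 to 35976589 counts, so that 1 count was worth 0.0271 to 0.0403 CPM (counts scaled to a common library size by TMM factors). Control 3 and Val+PA 2 were set off from their own groups on the second principal component (14.8% of the variance), at -35.6 and -63.8 against -10.6 to 26.5 elsewhere. Heavy chain values whose sign or call changed without this pair are given both ways. All 8 myoblast markers passed the filter on low counts, with a summed level of 2664 to 2904 CPM for Control, 3971 to 4170 CPM for Valine and 3762 to 5736 CPM for Val+PA. The fibroblast list summed to 279 to 462, 751 to 788 and 694 to 926 CPM in that order of groups, and 6 of its 8 genes passed the filter with Tcf21 at 0. The smooth muscle list, all 7 genes of which passed, summed to 546 to 623, 491 to 519 and 409 to 499 CPM. Acta2 made up most of that sum, at 552 ± 39.1, 473 ± 14.0 and 415 ± 39.1 CPM (SD, n = 3 each). Group means of Myocd, Cnn1, Tagln and Lmod1 were at most 0.989 CPM, and Smtn and Actg2 lay between these and Acta2. Cardiomyocyte markers summed to 12.0 to 14.0, 5.93 to 7.01 and 6.38 to 7.91 CPM, and 3 of their 8 genes passed, with Myl2 and Tbx5 at 0 in every library. The endothelial list summed to 0.524 to 1.09, 2.45 to 3.05 and 2.36 to 3.49 CPM with 2 of 5 genes passing and Emcn at 0. The immune list summed to 1.41 to 3.16, 5.46 to 6.63 and 5.89 to 7.49 CPM, and 2 of its 5 genes passed. None of the 5 adipocyte genes passed, and their sum was at most 0.245 CPM, with Adipoq and Lep at 0. What the shifts of these lists contribute to the heavy chain values was not tested.

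The heavy chains are close relatives, and the stretch of coding sequence around the ATP-binding loop of the head is shown because it holds both what the members share and what tells their reads apart. The 60 bases come from GENCODE M21 transcripts of GRCm38, 5′ to 3′, and capitals mark the bases that differ from Myh3.
Myh3: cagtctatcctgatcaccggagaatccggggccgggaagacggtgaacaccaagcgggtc
Myh8: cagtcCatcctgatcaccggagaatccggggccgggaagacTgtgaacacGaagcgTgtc
Myh7: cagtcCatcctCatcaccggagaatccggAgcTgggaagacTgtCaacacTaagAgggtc
Myh9: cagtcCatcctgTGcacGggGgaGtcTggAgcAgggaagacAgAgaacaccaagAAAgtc
Myh10: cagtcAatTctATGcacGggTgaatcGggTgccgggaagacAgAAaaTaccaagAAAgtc
Myh8 differed from Myh3 at 4 of these 60 bases and Myh7 at 8, while the non-muscle Myh9 and Myh10 differed at 14 and 16. Over the whole coding sequence Myh3 was 80.7% identical to Myh8 and 54.8% identical to Myh9. The closest pairs were Myh6 with Myh7, at 91.6%, and Myh1 with Myh2, at 90.9%. Of all 150-base windows of its transcript, 0% in Myh3, Myh9, Myh10 and Myh11 had an identical copy in another member. The share was 5.53% in Myh6, 5.51% in Myh7, 2.56% in Myh1, 2.08% in Myh2, 0.533% in Myh8 and 0.511% in Myh4. Reads that fall in these shared stretches cannot be told apart between those 6 genes, and how many did so was not tested. Shorter identical runs of coding sequence also join the other members, up to 94 bases for Myh3 (with Myh1) and 122 for Myh9 with Myh10. The shares for windows shorter than 150 bases were not tested.

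**Figure D1:**
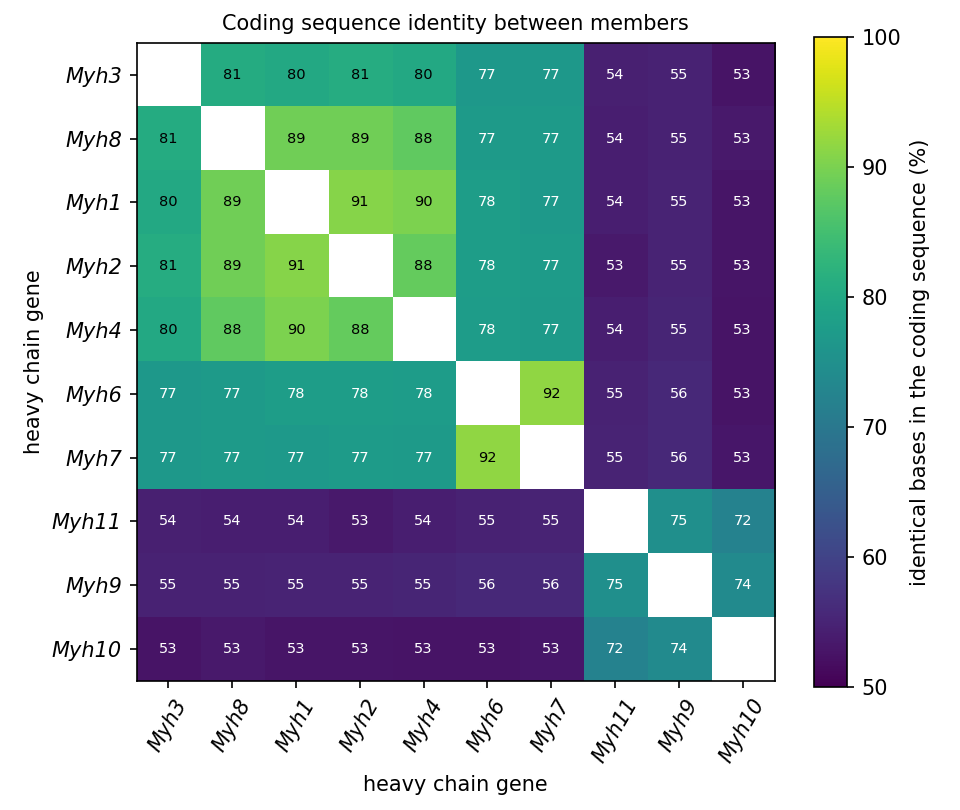
Percent of identical bases between the coding sequences of each pair of members, in aligned positions, with colour from 50 to 100%. The striated genes share 76.6 to 91.6% with each other, and the smooth and non-muscle genes share 52.6 to 55.9% with them and 72.3 to 74.9% with each other.

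The genes also lie in clusters. Myh3 (ENSMUSG00000020908) spans 67078300 to 67102291 on the plus strand of chromosome 11 in GRCm38, followed on the same strand by Myh2 (67171027 to 67197517), Myh1 (67200052 to 67224575), Myh4 (67238029 to 67260446) and Myh8 (67277124 to 67308634). Myh10 (ENSMUSG00000020900) lies farther along chromosome 11 at 68691559 to 68816632, plus strand. Myh6 (54941921 to 54966927) and Myh7 (54970684 to 54994626) are neighbours on the minus strand of chromosome 14. Myh9 (ENSMUSG00000022443) spans 77760587 to 77842175 on the minus strand of chromosome 15, and Myh11 spans 14194535 to 14291372 on the minus strand of chromosome 16. Within the cluster of striated genes on chromosome 11, Myh3 had the highest and Myh4 the lowest summed count.

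Myh3, the embryonic heavy chain, was the striated gene with the most counts in all 9 libraries. It had 23, 45 and 22 counts in Control 1 to 3, which is 0.737, 1.37 and 0.886 CPM. In Valine it had 340, 272 and 321 counts, or 9.24, 7.91 and 9.41 CPM. In Val+PA it had 221, 385 and 206 counts, or 6.00, 12.3 and 6.37 CPM. Every Valine and Val+PA library was above every Control library, and Val+PA 2 was the highest of all. The Valine and Val+PA libraries overlapped.

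Between Valine and Control, Myh3 rose from 0.997 ± 0.329 to 8.85 ± 0.821 CPM (SD, n = 3 each), a log2 fold change of 3.13 (SE 0.32, 8.78-fold, adjusted p = 1.14e-05 by edgeR with Benjamini-Hochberg). Of the 18415 genes tested, 20.8% were called higher in this comparison and 29.7% had groups that do not overlap in that direction, so a call by itself was common. The median log2 fold change of all genes tested was -0.00493. In Val+PA the mean was 8.23 ± 3.55 CPM (SD, n = 3), and the log2 fold change against Control was 3.03 (SE 0.32, 8.14-fold, adjusted p = 1.59e-05 by edgeR with Benjamini-Hochberg), where 20.4% of all genes were called higher and 23.5% had groups that do not overlap in that direction. These comparisons share the Control libraries. Without Control 3 and Val+PA 2 the log2 fold changes were 3.06 and 2.54.

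Between Val+PA and Valine, Myh3 was not called. Its log2 fold change was -0.11 (SE 0.26, adjusted p = 0.858 by edgeR with Benjamini-Hochberg). The value rested on Val+PA 2, since without that library and Control 3 it was -0.52 (SE 0.15, adjusted p = 0.0796 by edgeR with Benjamini-Hochberg). No gene of the 18415 was called in this comparison, 0% in either direction, although 2428 (13.2%) had an unadjusted p below 0.05. DESeq2 called 212 genes there, and limma-voom and limma on the normalized signal called 0.

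Myh8, the perinatal heavy chain that shares the developmental class with Myh3, was near the detection limit. The Control libraries held 1, 1 and 0 counts, the Valine libraries 7, 5 and 7 and the Val+PA libraries 4, 5 and 2. Both treated groups lay above Control in every library, which held for 29.7% of all genes tested in Valine and 23.5% in Val+PA. Those shares cover genes that passed the filter on low counts, which Myh8 did not. The summed rate was 8.02 times that of Control in Valine (95% exact counting interval 1.94 to 71.0) and 4.87 times in Val+PA (1.06 to 45.2). These intervals cover counting error only, since reads without molecular identifiers are not independent molecules. The exact permutation test of 3 libraries against 3 gave p = 0.1 for both, the smallest it can give. In a fit without the filter on low counts the log2 fold change of Valine over Control was 2.83 (SE 1.14, adjusted p = 0.0530 by edgeR with Benjamini-Hochberg), so Myh8 was not called.

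Per base of exon, Myh3 exceeded Myh8 in each library, 30.4 to 87.5 times for Control, 83.3 to 96.3 times for Valine and 95.7 to 160.5 times for Val+PA, with 0.5 counts added to each gene. These folds depend on the length taken for Myh8, and with the length of 1 transcript per gene they were 16.1 to 46.2, 44.0 to 50.8 and 50.5 to 84.8 times. The log2 ratio of Myh8 to Myh3 was -5.75 ± 0.769 for Control, -6.48 ± 0.105 for Valine and -7.0 ± 0.382 for Val+PA (SD, n = 3 each). An exact permutation test over all assignments of libraries to the 3 groups gave p = 0.0143, or 0.0286 adjusted over the 4 ratios and shares tested in this way. The Control value depends on 0 to 1 counts of Myh8 per library and on the count added, and the p ranged from 0.00714 to 0.075 when 1 library was left out. By pairs, the exact permutation p was 0.2 for Valine against Control, 0.2 for Val+PA against Valine and 0.1 for Val+PA against Control. Without an added count, the summed rate of Valine over Control was 8.75 times for Myh3 and 8.02 times for Myh8.

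**Figure D2:**
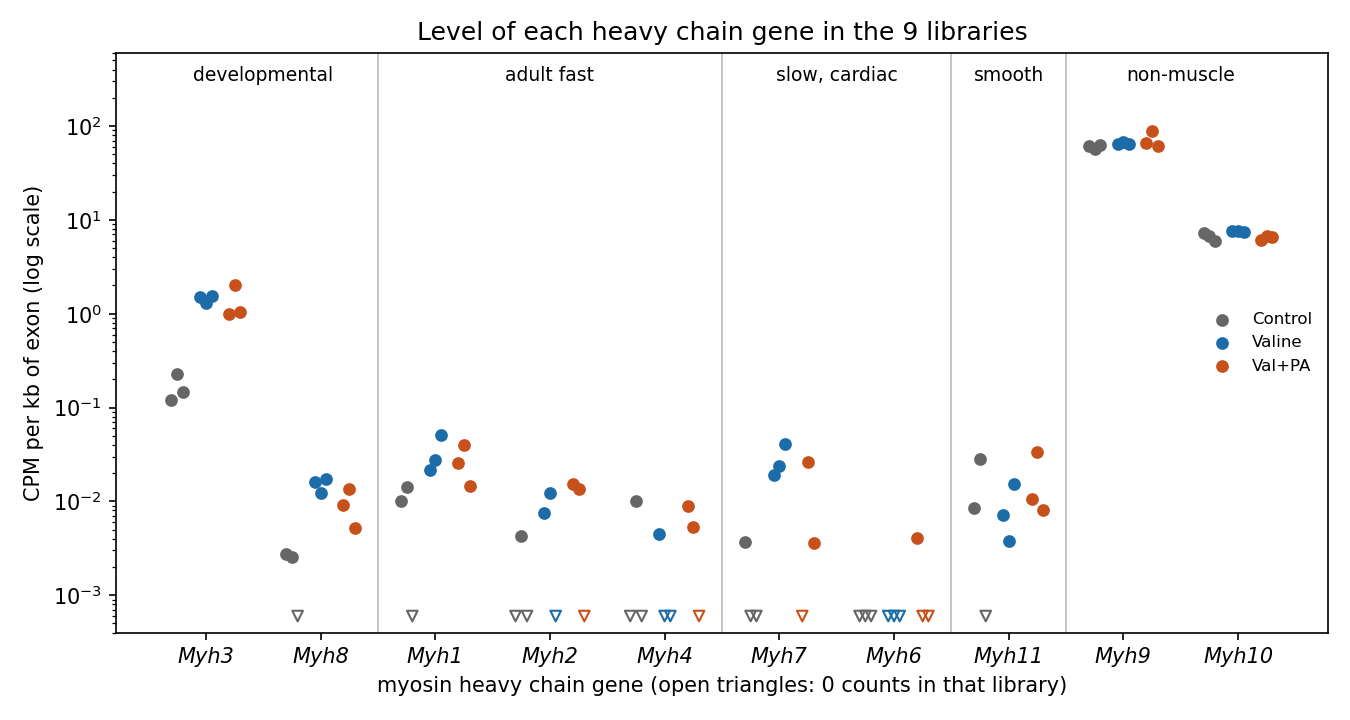
Level of each of the 10 genes in CPM per kb of exon on a log scale, 1 point per library, grouped by class, with open triangles at the bottom for libraries with 0 counts. Myh9 and Myh10 lie above all others in every library, Myh3 is next with its Control points below those of the treated groups.

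Adult fast genes were almost silent. Myh1, the IIx heavy chain, gave 2, 3 and 0 counts for the Control libraries, 5, 6 and 11 for the Valine libraries and 6, 8 and 3 for the Val+PA libraries. Valine libraries lay above all Control libraries, and Val+PA 3, with 3 counts, was level with Control 2 in counts but not in CPM (0.0927 against 0.0911). Of all genes tested, which do not include Myh1, 29.7% lay above Control without overlap in Valine and 23.5% in Val+PA. The summed rate of Myh1 was 3.72 times Control in Valine (95% exact counting interval 1.37 to 12.6) and 3.01 times in Val+PA (1.07 to 10.4). Without the filter the log2 fold change of Valine over Control was 1.87 (SE 0.89, adjusted p = 0.121 by edgeR with Benjamini-Hochberg), not called.

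Myh2, the IIa heavy chain, gave 0, 1 and 0 counts for the Control libraries, 2, 3 and 0 for the Valine libraries and 4, 3 and 0 for the Val+PA libraries, so that all groups overlapped. An antisense gene overlapping Myh2, 9430073C21Rik, had 20 counts over all libraries. Myh4, the IIb heavy chain of the fastest fibres, gave 0, 2 and 0 counts for the Control libraries, 1, 0 and 0 for the Valine libraries and 2, 1 and 0 for the Val+PA libraries. At this depth no difference in Myh2 or Myh4 was detectable. As a share of all striated counts per exon length, the adult fast genes held 6.16 ± 5.67% for Control, 2.68 ± 0.505% for Valine and 2.95 ± 1.70% for Val+PA (SD, n = 3 each, exact permutation test over the 3 groups p = 0.457, adjusted over the 4 ratios 0.457). Control 3 had 0 adult fast counts, and without it the exact permutation p was 0.0321.

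Myh7, the slow heavy chain also made in the ventricle of the heart, gave 1, 0 and 0 counts for the Control libraries, 6, 7 and 12 for the Valine libraries and 0, 7 and 1 for the Val+PA libraries. The Valine libraries were above all Control libraries, and Val+PA was split between Val+PA 2 with 7 counts and the other libraries with 0 and 1. Valine levels wholly above Control were seen in 29.7% of all genes tested, which do not include Myh7. The summed rate in Valine was 21.1 times that of Control (95% exact counting interval 3.46 to 867) on 25 counts against 1. In the fit without the filter, Myh7 was called higher in Valine, at a log2 fold change of 4.02 (SE 1.21, adjusted p = 0.00533 by edgeR with Benjamini-Hochberg), where 12.7% of 33116 genes were called higher. The exact permutation test of Valine against Control gave p = 0.1, the smallest it can give. The unfiltered fit also called 763 genes between Val+PA and Valine, where the filtered fit called 0. In Val+PA the summed rate was 0.336 times that of Valine (0.131 to 0.768), but the exact permutation test over libraries gave p = 0.3 and the fit without the filter an adjusted p = 0.542 (edgeR, Benjamini-Hochberg).

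Myh6, the heavy chain of the atrium and of the adult rodent heart, had 0 counts in Control and Valine and 1 count in Val+PA 1. A count of 0 over a group allows up to 0.0330 CPM in Control and 0.0292 CPM in Valine (3 counts of the group total). The microRNA genes inside Myh6 and Myh7, Mir208a and Mir208b, and the antisense transcript Mhrt of the Myh7 locus were at 0 in every library.

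Of the 101 striated counts in Control 90 (89.1%) were Myh3, of the 1005 in Valine 933 (92.8%) and of the 859 in Val+PA 812 (94.5%). By library the Myh3 share ran from 85.2% (Control 1, 95% exact binomial interval 66.3 to 95.8%) to 100.0% (Control 3, 84.6 to 100%). In the Valine libraries it was 91.5 to 94.2% and in Val+PA 92.9 to 97.2%. The intervals overlapped between groups.

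Myh11, the smooth muscle heavy chain, gave 2, 7 and 0 counts for the Control libraries, 2, 1 and 4 for the Valine libraries and 3, 8 and 2 for the Val+PA libraries, and all groups overlapped. The summed rates of Valine and Val+PA were 0.657 (95% exact counting interval 0.208 to 1.98) and 1.28 (0.506 to 3.39) times that of Control. No call was made with or without the filter.

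Myh9, the non-muscle IIA heavy chain of stress fibres and the cell cortex, had the highest level of the family in every library. The Control libraries held 24854, 24282 and 20033 counts, the Valine libraries 30366, 29749 and 28721 and the Val+PA libraries 31507, 36158 and 25463. In CPM these were 797, 738 and 807, then 825, 865 and 842, then 855, 1158 and 787. All Valine libraries were above all Control libraries by a small margin, and Val+PA spanned both groups, with Val+PA 2 the highest. Valine lay wholly above Control in 29.7% of all genes tested. A small nuclear RNA gene inside Myh9, Gm22107, had 448 counts over all libraries. Ranked per exon length among 52093 genes with a length, Myh9 stood at 842 for Control, 718 for Valine and 662 for Val+PA.

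The means of Myh9 were 780 ± 37.3, 844 ± 20.1 and 933 ± 197 CPM (SD, n = 3 each). The log2 fold change of Valine over Control was 0.11 (SE 0.13, adjusted p = 0.520 by edgeR with Benjamini-Hochberg). Without Control 3 and Val+PA 2 the same log2 fold change was 0.14 (SE 0.06, adjusted p = 0.0483 by edgeR with Benjamini-Hochberg), which passes the threshold, and 54.1% of genes were called in either direction there against 41.9% with all libraries. Val+PA over Control was 0.26 (SE 0.13, adjusted p = 0.140 by edgeR with Benjamini-Hochberg). Val+PA over Valine was 0.15 (SE 0.13, adjusted p = 0.601 by edgeR with Benjamini-Hochberg) and -0.042 without Control 3 and Val+PA 2, so its sign rested on Val+PA 2.

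Myh10, the non-muscle IIB heavy chain, gave 2346, 2315 and 1555 counts for the Control libraries, 2913, 2707 and 2632 for the Valine libraries and 2343, 2217 and 2233 for the Val+PA libraries. The levels were 75.2, 70.3 and 62.6 CPM, then 79.1, 78.7 and 77.1 CPM, then 63.6, 71.0 and 69.0 CPM. Every Valine library was above every library of the other groups, which overlapped each other. Against Control, groups without overlap in that direction were seen in 29.7% of all genes tested. The log2 fold change of Valine over Control was 0.17 (SE 0.10, adjusted p = 0.182 by edgeR with Benjamini-Hochberg).

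Val+PA over Valine was -0.21 in Myh10 (SE 0.10, unadjusted p = 0.0597 and adjusted p = 0.392 by edgeR with Benjamini-Hochberg). Groups without overlap in the lower direction were seen in 12% of all genes tested there. Without Control 3 and Val+PA 2 the value was -0.24 (SE 0.07, adjusted p = 0.0569 by edgeR with Benjamini-Hochberg). Val+PA over Control was -0.032 (SE 0.10, adjusted p = 0.823 by edgeR with Benjamini-Hochberg).

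**Figure D3:**
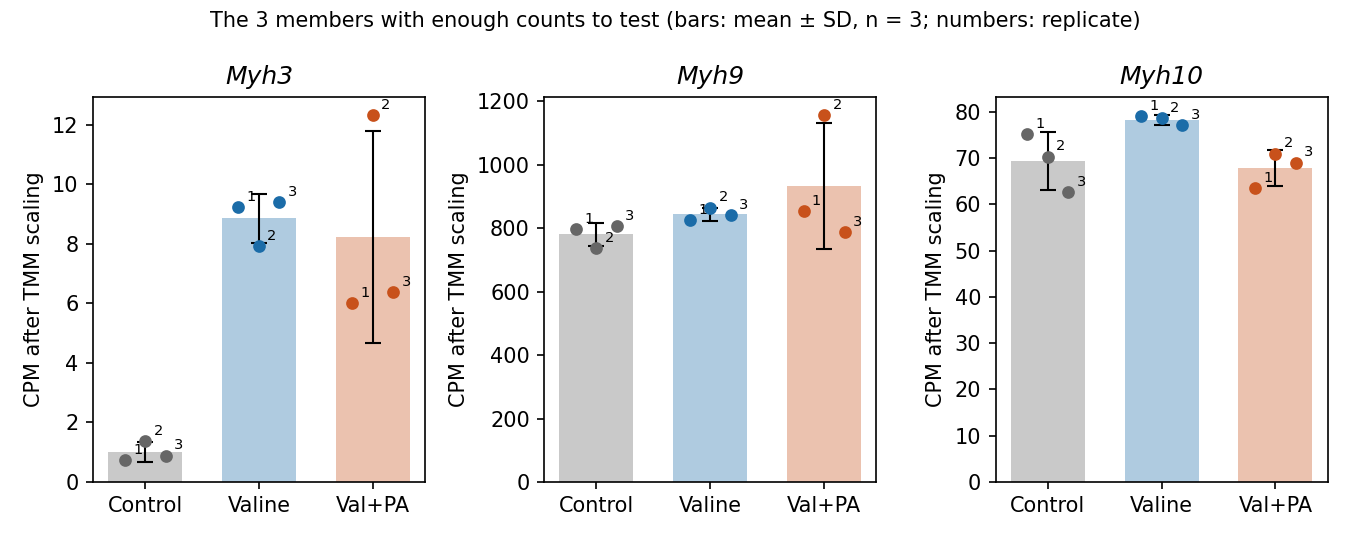
CPM of Myh3, Myh9 and Myh10 in each library (points numbered by replicate), with bars for the mean and whiskers for the SD of 3 libraries and every axis starting at 0. Myh3 is at 1.37 CPM or less in Control and at 6.00 CPM or more elsewhere, Myh9 lies at 738 to 865 CPM apart from Val+PA 2 at 1158 CPM, and Myh10 lies at 62.6 to 79.1 CPM.

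The balance between the non-muscle genes does not depend on library size. Myh9 exceeded Myh10 per exon length by 8.57, 8.48 and 10.4 times for Control, 8.43, 8.89 and 8.83 times for Valine and 10.9, 13.2 and 9.22 times for Val+PA. The log2 ratio of Myh10 to Myh9 was -3.19 ± 0.167, -3.12 ± 0.0414 and -3.46 ± 0.258 (SD, n = 3 each), with all Val+PA libraries below all Valine libraries. The exact permutation test over the 3 groups gave p = 0.0643 (0.0857 adjusted over the 4 ratios), and p = 0.0381 without Control 3 and Val+PA 2, where the log2 difference of Val+PA from Valine was -0.20 in place of -0.33.

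Non-muscle genes made up most of the heavy chain RNA in each group. Per exon length, Myh9 held 89.8 ± 1.07% of the family for Control, 87.8 ± 0.405% for Valine and 90.0 ± 1.08% for Val+PA (SD, n = 3 each). Myh10 held 9.89 ± 0.996%, 10.1 ± 0.25% and 8.27 ± 1.37% in the same order. Myh3 held 0.247 ± 0.0927%, 1.97 ± 0.214% and 1.65 ± 0.371%. With the length of 1 transcript per gene in place of all exons, the Myh3 share was 0.147, 1.18 and 0.984%. All 10 members together took 0.0808 to 0.122% of the counts of a library, with the highest share in Val+PA 2.

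The order of the levels per kb of exon was Myh9, Myh10 and Myh3 in each group, at 60.4 ± 2.89, 6.64 ± 0.607 and 0.165 ± 0.0544 CPM per kb in Control (SD, n = 3). In Valine these were 65.3 ± 1.55, 7.49 ± 0.10 and 1.46 ± 0.136 CPM per kb, and in Val+PA 72.2 ± 15.3, 6.49 ± 0.366 and 1.36 ± 0.587 CPM per kb. No neighbours among these 3 overlapped. The 7 other genes were at or below 0.0508 CPM per kb in every library. In Valine they followed in the order Myh1 (0.0332 ± 0.0155 CPM per kb), Myh7 (0.0278 ± 0.0115), Myh8 (0.0153 ± 0.00264), Myh11, Myh2, Myh4 and Myh6 (SD, n = 3). By transcript length Myh7 came before Myh1 in that order. Myh1 and Myh7 overlapped by either length, Myh7 and Myh8 were apart by exon length only, and Myh8 and Myh11 by transcript length only, while the later neighbours overlapped by either. In Control the order was Myh11, Myh1, Myh4, Myh8, Myh2, Myh7 and Myh6, and in Val+PA Myh1, Myh11, Myh7, Myh2, Myh8, Myh4 and Myh6, and all neighbours overlapped in both, though places within these orders also moved with the length taken.

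Counts of Myh9 and Myh10 per exon length were 545, 277 and 460 times those of Myh3 and Myh8 for Control, 46.3, 56.4 and 46.1 times for Valine and 72.2, 47.0 and 63.8 times for Val+PA. With the length of 1 transcript per gene the same multiples ran from 460 to 893, from 76.7 to 94.0 and from 79.1 to 121 times. The log2 ratio of developmental to non-muscle genes was -8.68 ± 0.507 for Control, -5.63 ± 0.166 for Valine and -5.91 ± 0.319 for Val+PA (SD, n = 3 each). It was higher by 3.06 in Valine and by 2.78 in Val+PA than in Control, with no overlap of libraries. The exact permutation test over the 3 groups gave p = 0.00714 (0.0286 adjusted over the 4 ratios), where the smallest possible is 0.00357. Developmental counts in Valine were 933 of Myh3 and 19 of Myh8, so this result is not separate from the rise of Myh3. Between Val+PA and Valine the difference was -0.28 (exact permutation test p = 0.2).

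**Figure D4:**
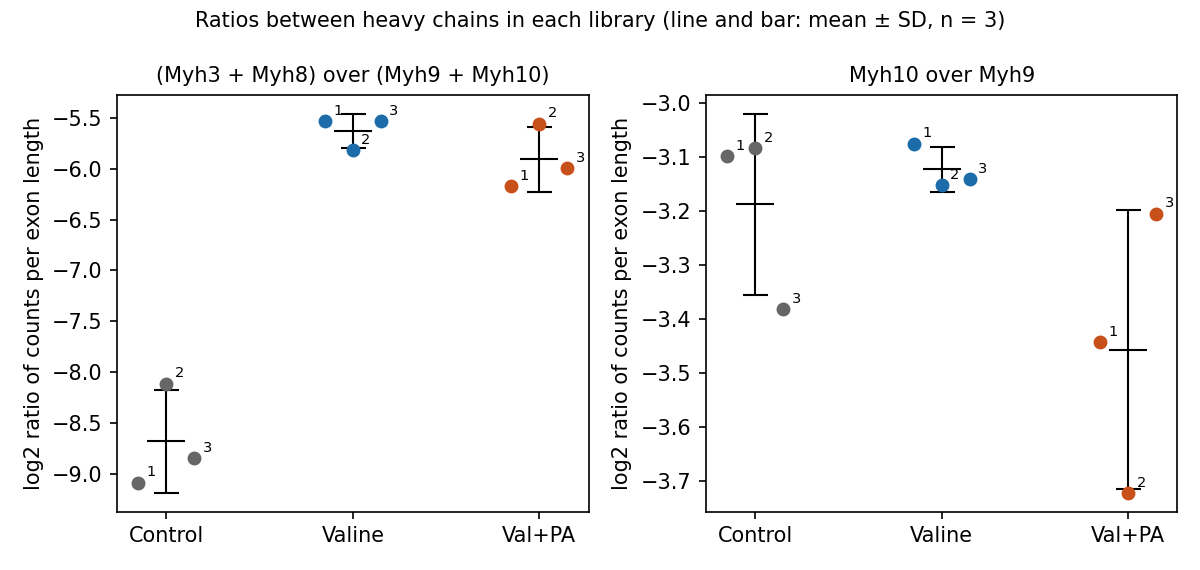
Log2 ratio of counts per exon length in each library (points numbered by replicate), developmental over non-muscle genes on the left and Myh10 over Myh9 on the right, with the mean and SD of 3 libraries. The left panel shows Control below -8 and all other libraries above -6.5, and the right panel shows Control 3 and Val+PA 2 as the lowest of their groups.

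Promoters are shown for the developmental genes Myh3 and Myh8, for Myh4, a neighbour with hardly any count, and for Myh9, with the highest level. They are the 250 bases before the RefSeq start in GRCm38.p6, 5′ to 3′ on the strand of the gene, at chr11:67078050-67078299 for Myh3, chr11:67276874-67277123 for Myh8, chr11:67237562-67237811 for Myh4 (all plus strand) and chr15:77842176-77842425 for Myh9 (minus strand). Capitals mark matches on either strand to the E-box CANNTG, the CArG box, the MEF2 site, the MCAT box CATTCC or the TATA box TATAAA.
Myh3: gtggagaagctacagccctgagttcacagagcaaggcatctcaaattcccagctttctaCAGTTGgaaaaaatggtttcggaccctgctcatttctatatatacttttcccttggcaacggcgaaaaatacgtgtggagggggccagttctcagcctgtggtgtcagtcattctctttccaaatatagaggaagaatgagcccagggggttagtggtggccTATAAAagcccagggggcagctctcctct
Myh8: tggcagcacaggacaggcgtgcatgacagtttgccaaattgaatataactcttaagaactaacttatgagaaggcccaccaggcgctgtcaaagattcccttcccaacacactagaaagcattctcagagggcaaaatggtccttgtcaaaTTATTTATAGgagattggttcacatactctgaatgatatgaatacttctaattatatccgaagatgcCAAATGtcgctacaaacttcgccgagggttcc
Myh4: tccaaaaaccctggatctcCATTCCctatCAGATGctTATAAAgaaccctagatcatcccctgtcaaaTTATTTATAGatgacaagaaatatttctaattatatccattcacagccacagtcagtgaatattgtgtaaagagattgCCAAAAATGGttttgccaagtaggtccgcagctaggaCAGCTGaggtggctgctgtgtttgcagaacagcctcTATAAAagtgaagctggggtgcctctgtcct
Myh9: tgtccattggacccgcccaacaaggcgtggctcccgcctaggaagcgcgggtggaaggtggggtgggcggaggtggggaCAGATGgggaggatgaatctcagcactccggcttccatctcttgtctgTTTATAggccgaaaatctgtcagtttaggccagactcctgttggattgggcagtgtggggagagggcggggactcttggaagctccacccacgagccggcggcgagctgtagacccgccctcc
With positions counted back from the start, Myh3 had an E-box (CAGTTG) at -191 and a TATA box at -29. Myh8 had an E-box at -32 and a MEF2 site at -99, which overlaps a match to TATAAA on the other strand. Myh4 held every motif searched, with E-boxes at -221 and -67, a CArG box at -104 and a MEF2 site at -182, and it was at 0 to 2 counts per library. Myh9 had an E-box at -171 and a match to TATAAA on the other strand at -123. Myh1, which like Myh3 and Myh8 lay above Control in both treated groups, is not shown. Its 250 bases held a MEF2 site at -211, a MCAT box at -16, matches to TATAAA at -208 and -32, and no E-box.

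Of 32851 promoters of the same length, 66.2% held an E-box, 1.47% a CArG box, 2.92% a MEF2 site, 12.6% a MCAT box and 12.4% a TATA box. An E-box match is thus common, and a match is a description of letters and not a site in use. No promoter of this kind was matched for Myh11.

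Light chains of striated muscle rose in Valine. Of 8 listed, 4 were tested and all 4 were higher in Valine than in Control, with a median log2 fold change of 1.93 against -0.00493 over all genes, of which 20.8% were called higher and 21.1% lower. Mylpf, the fast regulatory light chain, rose from 2.75 ± 0.941 to 17.5 ± 1.77 CPM (SD, n = 3 each), a log2 fold change of 2.66 (SE 0.22, adjusted p = 2.97e-06 by edgeR with Benjamini-Hochberg). Myl1, the fast essential light chain, rose by 2.62 on the log2 scale, Myl4, the embryonic and atrial essential light chain, by 1.24, and Myl6b by 0.40. Per kb of exon, Myl1 stood at 23.3 ± 1.38 and Mylpf at 16.5 ± 1.66 CPM per kb in Valine (SD, n = 3 each), both above Myh3 at 1.46.

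Among the light chains of smooth and non-muscle myosin 1 of 4 tested was higher and 2 were lower in Valine. Of all genes tested, 20.8% were called higher and 21.1% lower. Myl12a, a non-muscle regulatory light chain, rose by 0.46 on the log2 scale, from 115 ± 14.4 to 159 ± 4.57 CPM (SD, n = 3 each, adjusted p = 0.0435 by edgeR with Benjamini-Hochberg). Myl9, the smooth muscle regulatory light chain, fell by 0.85 and Myl6, the essential light chain of non-muscle myosin, fell by 0.48. Counts of Myl12a and its near-identical neighbour Myl12b may be split between them by the counting. Myl12b itself matched 2 gene IDs, and the ID with more counts was used. The list's median log2 fold change was -0.0092.

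Among kinases and phosphatase subunits that act on the regulatory light chains, 3 of 12 tested rose and 1 fell in Valine, beside 20.8% higher and 21.1% lower of all genes, so the share that rose was near the background. Mylk, the light chain kinase of smooth muscle and other cells, rose from 3.48 ± 0.692 to 8.26 ± 1.29 CPM (SD, n = 3 each), a log2 fold change of 1.24 (SE 0.19, adjusted p = 0.000254 by edgeR with Benjamini-Hochberg). Mylk2, the skeletal muscle kinase, fell from 6.95 ± 0.201 to 2.23 ± 0.288 CPM, a log2 fold change of -1.64 (SE 0.19, edgeR, adjusted p = 3.34e-05). The list's median log2 fold change was 0.035. Without Control 3 and Val+PA 2, where 27% of all genes were called higher and 27.2% lower, 4 of the 12 rose and 3 fell.

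Partners of the thick filament and myosin chaperones rose in 9 of 14 tested and fell in 3, with a median log2 fold change of 1.01, where 20.8% of all genes were called higher and 21.1% lower. Mybph, a myosin-binding protein, rose by 2.60 (SE 0.15) from 1.93 ± 0.0964 to 11.7 ± 0.512 CPM (SD, n = 3 each, adjusted p = 2.39e-07 by edgeR with Benjamini-Hochberg). Unc45b, the striated muscle chaperone that folds myosin heads, rose by 2.46 and Smyd1, its partner in filament assembly, by 1.55 on the log2 scale. Unc45a, the chaperone for non-muscle myosin, fell by 0.64, and Hsp90aa1, a general chaperone, fell by 1.02 (SE 0.09, adjusted p = 6.14e-06 by edgeR with Benjamini-Hochberg).

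Transcriptional regulators of muscle myosin genes rose in 11 of 22 tested and fell in 2, with a median log2 fold change of 0.51 and the same background of 20.8% higher and 21.1% lower. Myog, the myogenic factor that marks entry into differentiation, rose from 0.487 ± 0.164 to 7.0 ± 0.515 CPM (SD, n = 3 each), a log2 fold change of 3.82 (SE 0.26, adjusted p = 6.25e-07 by edgeR with Benjamini-Hochberg). Tead4, which binds MCAT boxes, fell by 0.88 on the log2 scale. Myod1, the factor of determined myoblasts, was at 8.29 ± 1.16 CPM in Control and 11.1 ± 1.27 CPM in Valine, with an adjusted p = 0.112 (edgeR, Benjamini-Hochberg, n = 3 each).

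Of the smooth muscle targets of SRF and its cofactors, 3 of 15 tested were higher and 5 lower, with a median log2 fold change of -0.22. The share that rose was near the 20.8% of all genes, and 21.1% of all genes fell. Myocd, the cofactor of smooth and heart muscle, rose by 1.48 on the log2 scale at a low level, from 0.312 ± 0.0953 to 0.864 ± 0.135 CPM (SD, n = 3 each). Tagln, an actin-binding protein of smooth muscle, fell by 1.44, from 0.651 ± 0.101 to 0.236 ± 0.0615 CPM. Of 17 tested myosins outside the conventional class 3 rose and 6 fell, at a median of -0.17, beside the same 20.8% and 21.1% of all genes. The largest fall was in Myo7b, a myosin of microvilli, at a log2 fold change of -3.39 (SE 0.17). Another conventional gene, Myh7b, was not called at 0.24 (SE 0.42, adjusted p = 0.683 by edgeR with Benjamini-Hochberg).

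**Figure D5:**
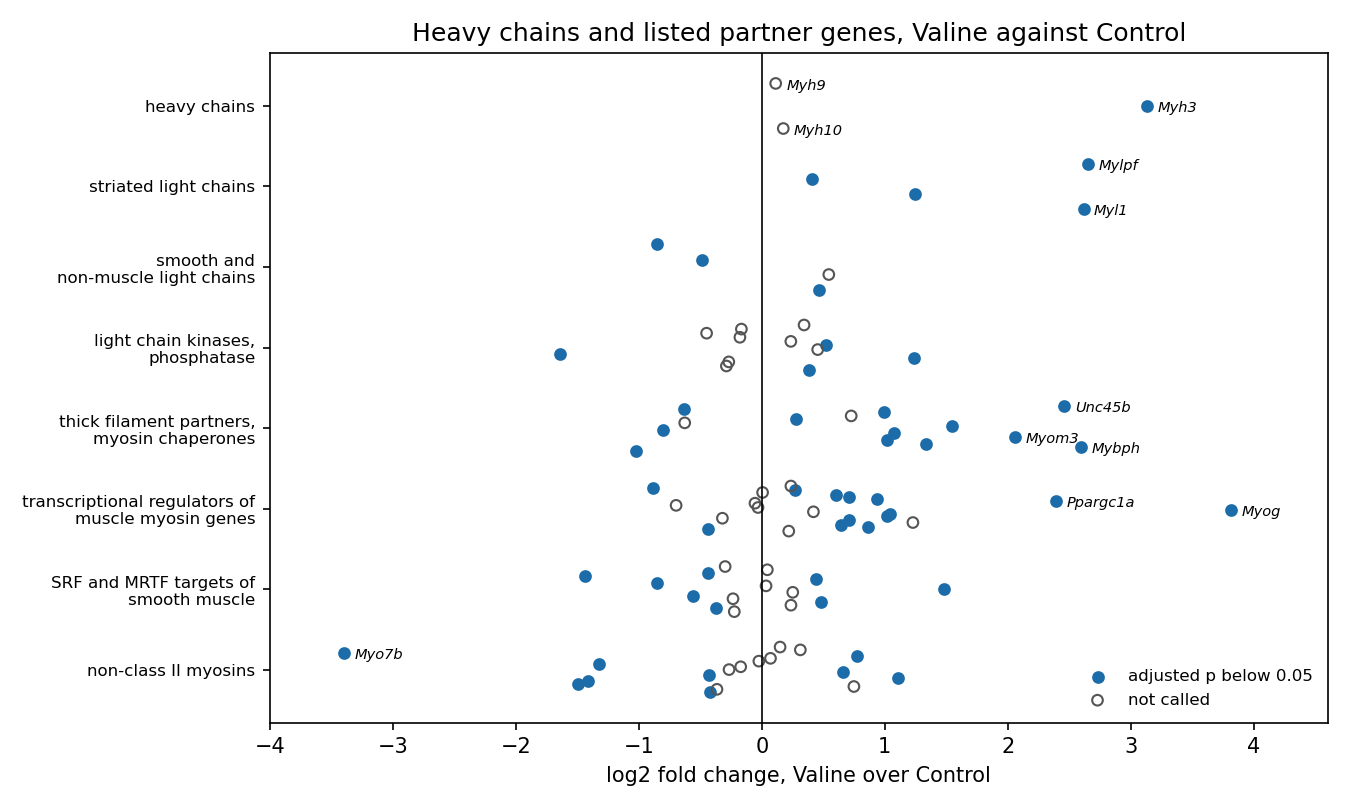
Log2 fold change of Valine over Control for the 3 tested heavy chains and the tested genes of each list, 1 point per gene, filled where the adjusted p is below 0.05. Striated light chains lie to the right of 0 in all 4 cases. The joint list of filament partners and chaperones and the list of regulators lie mostly to the right. Of all points, Myo7b lies farthest to the left at -3.39.

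Set against the same Control libraries, Val+PA had 4 higher and 0 lower of 4 striated light chains, 7 and 1 of 14 filament partners and chaperones, and 9 and 2 of 22 regulators. The smooth muscle list had 2 higher and 6 lower of 15, and the myosins outside the class 3 and 6 of 17. Background shares were 20.4% higher and 18.8% lower.

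Between Val+PA and Valine 0 genes of any of these lists were called, as for all genes. The smallest p of each list went to Mylpf with a log2 fold change of -0.61 (SE 0.20), Myl12a at -0.42 (SE 0.17), Mylk2 at 1.00 (SE 0.19), Ttn at -0.58 (SE 0.10), Myf5 at -0.59 (SE 0.12), Synpo2 at -0.33 (SE 0.11) and Myo7b at 0.79 (SE 0.18). Their adjusted p-values ran from 0.168 for Mylk2 and Ttn to 0.353 for Myl12a (edgeR quasi-likelihood test, Benjamini-Hochberg). Without Control 3 and Val+PA 2, where 604 of 18799 genes (3.21%) were called, 2 striated light chains, 1 filament partner, 3 regulators and 1 gene of the smooth muscle list were called lower and 1 kinase was called higher.

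By pattern over the 9 libraries, the genes most like Myh3 in log2 CPM were Atp2a1 (Pearson r 0.994), Stmn2 (0.991) and Mex3a (0.991), out of 10706 tested genes with a mean of at least 5 CPM. As many as 1072 of these had an r above 0.9, so such a likeness was common among genes that part Control from the rest. For Myh9 the nearest were Ppp1r9b (0.971), Slc38a10 (0.955) and Cul7 (0.954), with 57 genes above 0.9. All of these values share the same 9 libraries and their scaling factors. Among the members, r was 0.56 for Myh3 with Myh9, 0.36 for Myh3 with Myh10 and 0.042 for Myh9 with Myh10.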

How the data were processed

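RNA was measured in 9 libraries of C2C12 cells, 3 per group, assigned by their labels. The authors deposited whole-number read counts per gene, not normalized, and a normalized signal which, tested on the values, is each count divided by gene length and a library factor. HISAT2, featureCounts, DESeq2 and GRCm38 are named, per the submitters' processing notes, without versions. The libraries are called strand-specific, per the labels' protocols, and the strand setting of the counting is not given in the sources used here.

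Symbols, lengths and loci came from GENCODE M21, which matched 52093 IDs (97%), and promoters from RefSeq. Mkl1 and Mkl2 were matched through RefSeq synonyms. Counts were filtered with filterByExpr (18415 genes), scaled by TMM and modelled in edgeR 4.0.16 under R 4.3.3 (quasi-likelihood, group means, 9 libraries, 6 residual degrees of freedom, two-sided, Benjamini-Hochberg over all genes tested, threshold 0.05), as tested on simulated data. SE is the log2 fold change divided by the root of the F statistic. Ratios and the share between members were tested by exact permutation in numpy 2.4.6, of the F statistic over 3 groups and two-sided for pairs. Each sum in a ratio had 0.5 counts added, and the share had none. The adjustment over the 4 ratios and the exact binomial intervals used scipy 1.17.1. Coding sequences, taken as the longest reading frame, were aligned with MAFFT 7.526. DESeq2 1.42.0, limma 3.58.1, other scalings and filters, a replicate block and left-out libraries were alternatives, and transcript length was added after seeing the data.

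The members and lists were chosen with earlier results of these data known. Named genes are all members, the called gene with the largest rise and fall of each list for Valine against Control, the gene with the smallest p for Val+PA against Valine, and the 3 genes most like the highest member of each class that was tested. A gene that the rule would name is not reported here. Myl1, Myl4, Myl6b, Myl6, Unc45a, Unc45b, Smyd1 and Myod1 lie outside this rule, chosen once their values had been seen. Same-numbered libraries deviated together by r from -0.23 to 0.13, with 1 of 9 pairs above 0.1, so the numbers pair nothing.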

Additional observations from a re-analysis of the deposited data

How the results depend on the processing

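Myh3 kept its calls against Control in all 21 alternatives, with log2 fold changes of 1.60 to 3.45 in Valine and 1.48 to 3.34 in Val+PA and an adjusted p of at most 0.000372 and 0.000589 (edgeR, DESeq2 or limma). The number of genes called in Valine against Control was 5796 to 10172 and in Val+PA against Control 5634 to 9362. Between Val+PA and Valine 0 genes became 212 with DESeq2, 763 without the filter and 604 without Control 3 and Val+PA 2, and 0 members were called in any. Members called in Valine against Control rose from 1 to 2 without the filter (Myh7) and without those 2 libraries (Myh9). In that setting 27% of all genes were higher and 27.2% lower in Valine, and the partner lists had 4 higher and 3 lower kinases and phosphatase subunits (3 and 1 with all libraries), 9 and 4 filament partners (9 and 3), 13 and 2 regulators (11 and 2), 4 and 7 smooth muscle genes (3 and 5) and 4 and 7 other myosins (3 and 6). Both light chain lists had equal counts either way. In Val+PA against Control without those 2 libraries, 4741 of 18799 genes were higher and 4621 lower (3748 and 3471 of 18415 with all libraries). Kinases and phosphatase subunits had 4 higher and 2 lower there (2 and 2), and filament partners 7 and 3 (7 and 1). Regulators had 11 and 2 (9 and 2), and smooth muscle genes 2 and 7 (2 and 6). Other myosins had 3 and 8 (3 and 6). The causes were not tested.

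Signs near 0 turned. Myh10 in Val+PA against Control was 0.015 with upper-quartile factors, 0.0018 with library size alone and 0.0012 and 0.0016 on the deposited signal plus 1 and plus 0.1. It was -0.10 to 0.027 with 1 library left out, above 0 without Control 1 or Val+PA 1. Myh3 in Val+PA against Valine was -0.52 to 0.077, above 0 without Val+PA 1 or Val+PA 3. Myh9 there was -0.039 to 0.26, below 0 without Val+PA 2, and -0.042 without both libraries.

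With the replicate number as a block, no member's call changed and the number of genes called was 7369 and 6935 against Control. The exact permutation p for developmental to non-muscle genes and for Myh8 to Myh3 became 0.0556 each, among fewer assignments. Leaving out each library gave exact permutation p of 0.00714 to 0.0179 for the first, 0.00714 to 0.075 for Myh8 to Myh3, 0.05 to 0.304 for Myh10 to Myh9 (0.0381 without both libraries) and 0.0321 to 0.925 for the adult fast share. Depth limits the 7 members that were not tested, each with at most 12 counts in any library.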
